A study of Mus musculus with 43 samples.

Results

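The chemokines and leukocyte adhesion molecules of brain endothelial cells (EC) were described here as 10 genes: the chemokine genes Cxcl12 and Cx3cl1, the atypical chemokine receptor genes Ackr1 and Ackr3, the adhesion molecule genes Icam1, Icam2, Vcam1 and Alcam, and the selectin genes Selp and Sele. They were chosen by symbol, as the rows of the count table that carry these names, and make up 10 of its 54532 genes. On build GRCm38, Cxcl12 lies at chr6:117168535-117181367 on the plus strand, Icam2 at chr11:106377656-106388075 on the minus strand and Vcam1 at chr3:116109949-116129688 on the minus strand (GENCODE M21). All 10 passed the filter on low counts (0.5 CPM or more in 1 library or more, where CPM is the count scaled to the library total with TMM factors), and Selp passed it through 2 libraries.

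Bulk RNA was sequenced from EC sorted as CD45-, CD11b- and CD31+ from cortex and hippocampus of mice of 2 months of age, in 43 libraries of 7 strains. The long-inbred strains gave 31 libraries (6 of C57BL/6J, 5 of DBA/2J, 5 of A/J, 6 of NOD/ShiLtJ and 9 of 129S1/SvImJ), and the wild-derived strains gave 12 (6 of CAST/EiJ and 6 of WSB/EiJ). There were 16 female and 27 male libraries, 21 of cortex and 22 of hippocampus. Each title also carries the tag high or low, which the labels do not define: 15 of 16 female libraries were titled high, so the tag was compared within the males, of which 14 were titled high and 13 low. The labels give no treatment and no engineered allele for any group. The titles of 4 female 129S1/SvImJ libraries also end in a number (2 in 1 title, 3 in the others), and the labels do not say what it stands for. No label names the mouse behind a library, so libraries of a strain may share a mouse, and p-values measure the spread between libraries.

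Leukocytes leave the blood by rolling on selectins, arresting on adhesion molecules of the immunoglobulin family after chemokines on the vessel wall have activated their integrins, and then crossing the endothelium. In the healthy brain this traffic is low, and brain endothelium is known for little selectin on its surface until cytokines acting through NF-kB induce it. CXCL12, held on the vessel wall, binds the signalling receptor CXCR4 and the scavenging receptor ACKR3, and CX3CL1 is a membrane-bound chemokine read by CX3CR1.

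Library totals ran from 1626534 to 49372356 counts (median 5790701). A floor of 3 counts, against which a count of 0 is to be read, stood between 0.0537 and 1.84 CPM. It covers counting error only, since reads without molecular identifiers are not independent molecules. Counts on 3 genes with rRNA-like sequence (Gm23935, Gm42418 and Gm26917) took between 1.59 and 12.1% of the total in females, and between 13 and 29.3% in males, so that sex and this share cannot be told apart. Depth differed by sex as well, with a median total of 21242058 counts in females and 5257353 in males. The 16 endothelial markers summed to between 10600 and 21100 CPM, none of them at 0 in all libraries. Of 10 blood leukocyte markers 3 had no count in any library and 18 libraries had none of the 10, and the summed level reached at most 14.5 CPM. The pericyte sum ran from 2130 to 9750 CPM and the astrocyte sum from 1100 to 19700 CPM. In bulk RNA, fewer cells of a type and less RNA per cell cannot be told apart.

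The upstream sequence is shown for 3 members that stand for the range of levels: Cxcl12, the most abundant, Icam1, at an intermediate level, and Sele, at 0 in most libraries. Each run is the 250 bases before the RefSeq start on build GRCm38.p6, 5′ to 3′ on the strand of the gene, and is the reference sequence, not that of the other strains. Cxcl12 lies at chr6:117168285-117168534 on the plus strand, Icam1 at chr9:21015690-21015939 on the plus strand and Sele at chr1:164047984-164048233 on the plus strand. Capitals mark 3 motifs sought on both strands: the GC box GGGCGG, the TATA box TATAAA and an NF-kB-like motif, GGNNNTTCC.
Cxcl12: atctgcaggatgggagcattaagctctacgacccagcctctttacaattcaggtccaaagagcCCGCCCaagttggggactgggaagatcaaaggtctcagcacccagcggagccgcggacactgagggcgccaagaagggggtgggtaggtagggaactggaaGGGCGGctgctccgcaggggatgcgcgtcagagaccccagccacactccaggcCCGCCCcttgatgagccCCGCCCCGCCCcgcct
Icam1: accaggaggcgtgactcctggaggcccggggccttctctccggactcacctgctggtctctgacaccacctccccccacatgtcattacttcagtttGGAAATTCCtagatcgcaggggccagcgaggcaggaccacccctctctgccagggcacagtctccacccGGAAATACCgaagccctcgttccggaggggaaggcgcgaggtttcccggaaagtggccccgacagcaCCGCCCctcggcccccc
Sele: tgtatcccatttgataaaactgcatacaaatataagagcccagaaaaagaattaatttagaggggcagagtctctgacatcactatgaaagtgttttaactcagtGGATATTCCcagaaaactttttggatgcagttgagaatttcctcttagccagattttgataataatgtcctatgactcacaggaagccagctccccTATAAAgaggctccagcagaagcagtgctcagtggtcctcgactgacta

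The Cxcl12 window held 5 GC boxes (the last 2 overlap by 1 base) and neither of the other motifs. Icam1 held 1 GC box and 2 NF-kB-like matches, and Sele held 1 TATA box and 1 NF-kB-like match. Over all 32851 promoters of the same length, 32.7% held a GC box, 12.4% a TATA box and 15.7% an NF-kB-like match. The motifs were chosen after the sequences had been seen, and a match is a description of the letters only. The RefSeq promoter table held 8 of the 10 members; Icam2 and Vcam1 were not among them.

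Levels between genes were compared as the mean CPM over 43 libraries per kilobase of exon. Cxcl12 stood highest at 348.2 CPM per kb, followed by Icam2 at 41.9, Ackr3 at 18.2 and Cx3cl1 at 17.1. Icam1 (6.38), Vcam1 (3.58) and Alcam (2.32) were lower, and Ackr1 (0.764), Sele (0.420) and Selp (0.150) lay at the bottom. Vcam1 varied most among the 7 members with counts in nearly all libraries, with a coefficient of variation of 97.7%, against 42.3% for Cxcl12.

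Cxcl12 was higher in CAST/EiJ than in each of the other 6 strains over all 43 libraries, with calls against 129S1/SvImJ and C57BL/6J that held under 11 of 11 alternatives and calls against the other 4 that did not. In the 6 CAST/EiJ libraries it stood at 6089 and 5195 CPM in the female cortex and hippocampus, at 6200 and 5694 CPM in the male cortex and hippocampus titled high, and at 4244 and 3771 CPM in those titled low. The other 37 libraries ran from 1182 to 3912 CPM with a median of 2435 CPM. The groups overlapped by 1 library on each side: the male CAST/EiJ hippocampus library titled low lay below the male DBA/2J cortex library titled low.

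The mean was 5199 ± 999.0 CPM in CAST/EiJ (SD, n = 6), 3013 ± 456.6 in A/J (n = 5), 2865 ± 556.8 in WSB/EiJ (n = 6), 2748 ± 924.7 in DBA/2J (n = 5), 2516 ± 634.0 in NOD/ShiLtJ (n = 6), 2227 ± 398.1 in C57BL/6J (n = 6) and 1863 ± 542.3 in 129S1/SvImJ (n = 9). Among the strains Cxcl12 differed with an adjusted p of 4.26e-09 in edgeR's quasi-likelihood test with Benjamini-Hochberg adjustment over all genes, the test behind every adjusted p given here. It was the 1 member of 10 that passed, beside 2.68% of all genes tested.

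Of the 210 contrasts between pairs of strains (21 for each member), 7 passed, all of Cxcl12, beside 0.404% over all genes and pairs. CAST/EiJ exceeded 129S1/SvImJ 2.79-fold (log2 difference 1.48 ± 0.161 SE, edgeR adjusted p = 6.46e-10) and C57BL/6J 2.33-fold (1.22 ± 0.182, edgeR adjusted p = 6.32e-06). The difference was smallest against A/J, at 1.73-fold (0.787 ± 0.190, edgeR adjusted p = 0.0297), and this call was lost without any one of 8 libraries, the 4 of CAST/EiJ titled high and all of A/J but the male cortex library titled high (adjusted p 0.0524 to 0.128). WSB/EiJ, the other wild-derived strain, lay 1.81-fold below CAST/EiJ (0.860 ± 0.180, edgeR adjusted p = 0.00504). That call was lost without the libraries under 3000000 counts (0.776, edgeR adjusted p = 0.338), in cortex only (0.747, edgeR adjusted p = 0.475) and in hippocampus only (0.995, edgeR adjusted p = 0.0964). Of 11 alternatives, the calls against NOD/ShiLtJ, DBA/2J, WSB/EiJ and A/J held under 10, 9, 8 and 5. The seventh contrast, A/J above 129S1/SvImJ (log2 129S1/SvImJ minus A/J of -0.693 ± 0.170, edgeR adjusted p = 0.0337), was also lost without any one of 8 libraries, 3 male libraries of A/J and 5 female libraries of 129S1/SvImJ (adjusted p 0.0552 to 0.185). It held under 6 of 11 alternatives. It was -0.353 in males only, -0.338 in hippocampus only and -0.594 with the rRNA-like covariate (edgeR adjusted p = 0.151), and none of these was called. Most 129S1/SvImJ libraries were female and most A/J libraries male. The median total was 30897300 counts in 129S1/SvImJ and 6719430 in A/J, and the median rRNA-like share 2.59% and 16.6%. From A/J down to 129S1/SvImJ, no strain differed from the next in order (adjusted p 0.965 to 1.0).

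**Figure D1:**
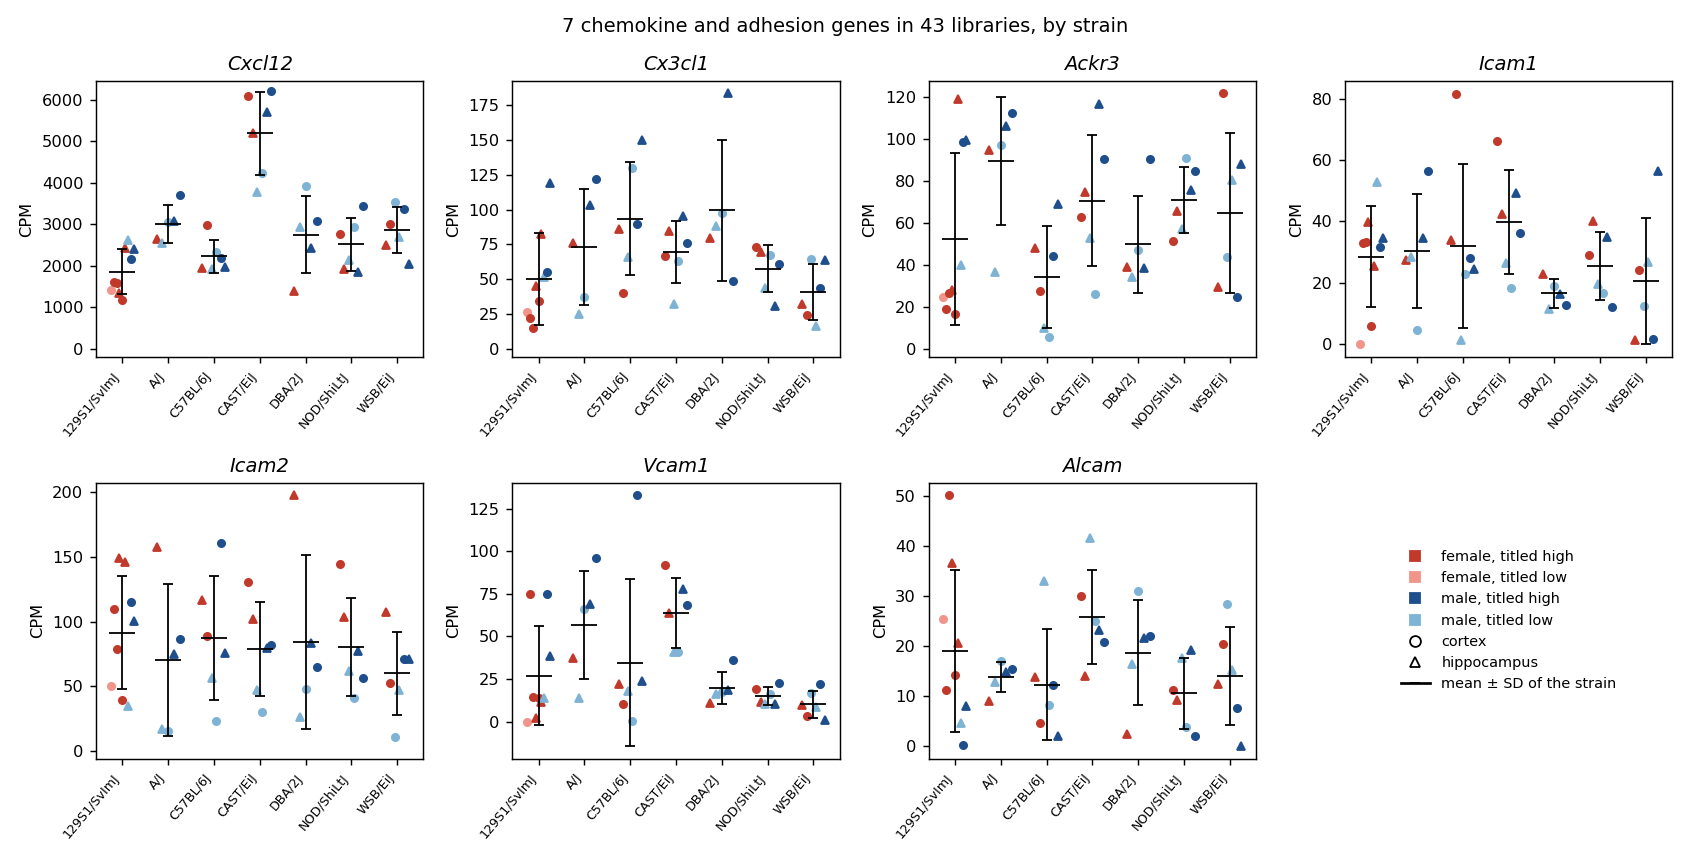
Each panel plots one member in CPM (linear axis) for the 43 libraries by strain, with colour for sex and title tag, shape for region, and bars for the strain mean ± SD. Cxcl12 in CAST/EiJ lies between 3771 and 6200 CPM, above all but 1 of the other 37 libraries.

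**Figure D2:**
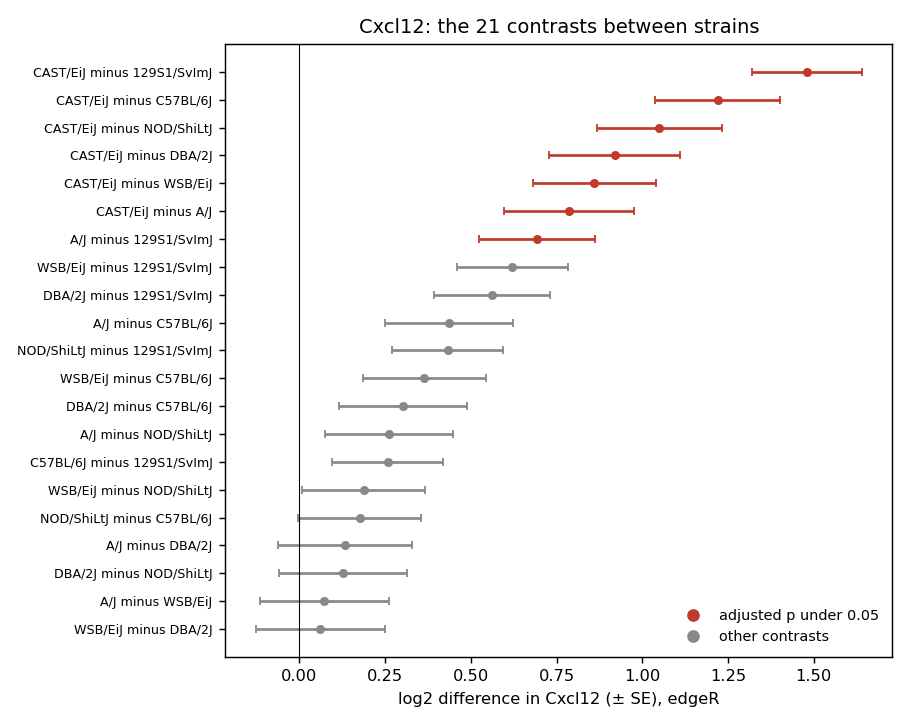
The log2 difference in Cxcl12 with its SE for each of the 21 pairs of strains, ordered by size and written as higher minus lower strain, with the 7 contrasts at an adjusted p under 0.05 in red. The 6 contrasts of CAST/EiJ run from 0.787 to 1.48.

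Sums over marker lists also differed between CAST/EiJ and the other strains, and their part in the Cxcl12 difference was not tested. The 10 pericyte markers, 6 of which passed the test among strains, summed to 2130 to 3150 CPM in CAST/EiJ and 2540 to 9750 CPM elsewhere. The 8 venous markers (3 passed) summed to 1870 to 2520 CPM against 677 to 2900 CPM, and the 10 arterial markers (2 passed) to 447 to 850 CPM against 272 to 923 CPM. The endothelial sum ran from 13200 to 18600 CPM in CAST/EiJ and from 10600 to 21100 CPM elsewhere. The 5 erythroid markers (3 passed) summed to a median of 543.0 CPM in CAST/EiJ (31.2 to 678.0) and 121.0 CPM elsewhere (23.3 to 617.0). Reads of all strains were aligned to mm10, which is built from C57BL/6J, and the effect of this on the counts of other strains was not tested.

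Between wild-derived and long-inbred strains, Cxcl12 was higher in the former, at 4032 ± 1442 CPM (SD, n = 12) against 2388 ± 701.0 CPM (n = 31). The log2 difference was 0.756 ± 0.130 (edgeR adjusted p = 1.16e-04), and no other member passed, beside 0.749% of all genes. Without CAST/EiJ it was 0.263 and was not called (adjusted p = 0.704). With counts summed per strain, 2 strains against 5, it was 0.973 and was not called (adjusted p = 0.797). Libraries of a strain are not independent replicates of origin. The median log2 difference over all genes was -0.379.

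Cx3cl1 was highest in DBA/2J, at 99.4 ± 50.6 CPM (SD, n = 5), and lowest in WSB/EiJ, at 40.9 ± 20.1 CPM (n = 6), and did not pass the test among strains (edgeR adjusted p = 0.288). Ackr3 ran from 34.3 ± 24.4 CPM in C57BL/6J (n = 6) to 89.6 ± 30.4 CPM in A/J (n = 5, edgeR adjusted p = 0.626). Icam1, which binds the integrin LFA-1, lay between 16.5 ± 4.64 CPM in DBA/2J (n = 5) and 39.8 ± 17.1 CPM in CAST/EiJ (n = 6, edgeR adjusted p = 0.842). Icam2, a constitutive LFA-1 ligand of endothelium, lay between 59.9 ± 32.2 CPM in WSB/EiJ (n = 6) and 91.4 ± 43.6 CPM in 129S1/SvImJ (n = 9, edgeR adjusted p = 0.930). Alcam, a ligand of CD6, lay between 10.5 ± 7.01 CPM in NOD/ShiLtJ and 25.8 ± 9.39 CPM in CAST/EiJ (n = 6 each, edgeR adjusted p = 0.830). In all 5 the ranges of the strains overlapped.

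Vcam1, the counter-receptor of the integrin VLA-4, did not pass among strains (edgeR adjusted p = 0.107). Its level was 63.9 ± 20.5 CPM in CAST/EiJ (SD, n = 6) and 56.5 ± 31.7 CPM in A/J (n = 5), and it was lowest in NOD/ShiLtJ at 15.01 ± 5.10 CPM and in WSB/EiJ at 10.1 ± 8.0 CPM (n = 6 each). The 6 CAST/EiJ libraries ran from 40.6 to 92.2 CPM, within the range of the other 37 (0 to 133.0 CPM, median 16.3 CPM). CAST/EiJ exceeded WSB/EiJ by 2.65 ± 0.754 on the log2 scale (edgeR adjusted p = 0.122), a contrast that passed with no filter, with sex, region and tag as terms, and without the female 129S1/SvImJ cortex library titled low. The test among strains passed with no filter on low counts (adjusted p = 0.0252) and with sex, region and tag as terms (0.0350). It also passed without the male C57BL/6J cortex library titled high (0.0423) or the female 129S1/SvImJ cortex library titled low (0.0327). In that 129S1/SvImJ library, Vcam1 and Icam1 both had 0 counts, under a floor of 0.104 CPM.

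Ackr1, a venular chemokine-binding receptor, had counts in 15 of 43 libraries and more than 3 counts in 12. It reached 8.98 CPM in the male 129S1/SvImJ hippocampus library titled high (38 counts), and 6.66 CPM (348 counts) in 1 female 129S1/SvImJ cortex library. All 6 C57BL/6J libraries were at 0, under floors of 0.137 to 0.772 CPM. Sele, which binds leukocyte glycans, had counts in 14 libraries, 9 of 16 female and 5 of 27 male. Female libraries were deeper, with a median total of 21242058 counts against 5257353 in males. More than 3 Sele counts were found in 6 female and 4 male libraries. The 3 highest were the female 129S1/SvImJ cortex library titled low at 14.98 CPM (432 counts), a female 129S1/SvImJ cortex library titled high at 8.66 CPM (294 counts) and the female DBA/2J hippocampus library at 7.82 CPM (437 counts). Selp, the endothelial and platelet selectin, had 83 counts (27.6 CPM) in the male NOD/ShiLtJ cortex library titled high, 15 and 1 counts in 2 CAST/EiJ hippocampus libraries, and 0 in the other 40 (floors of 0.0537 to 1.84 CPM). None of the 3 passed any comparison, and no fold change is given for them.

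**Figure D3:**
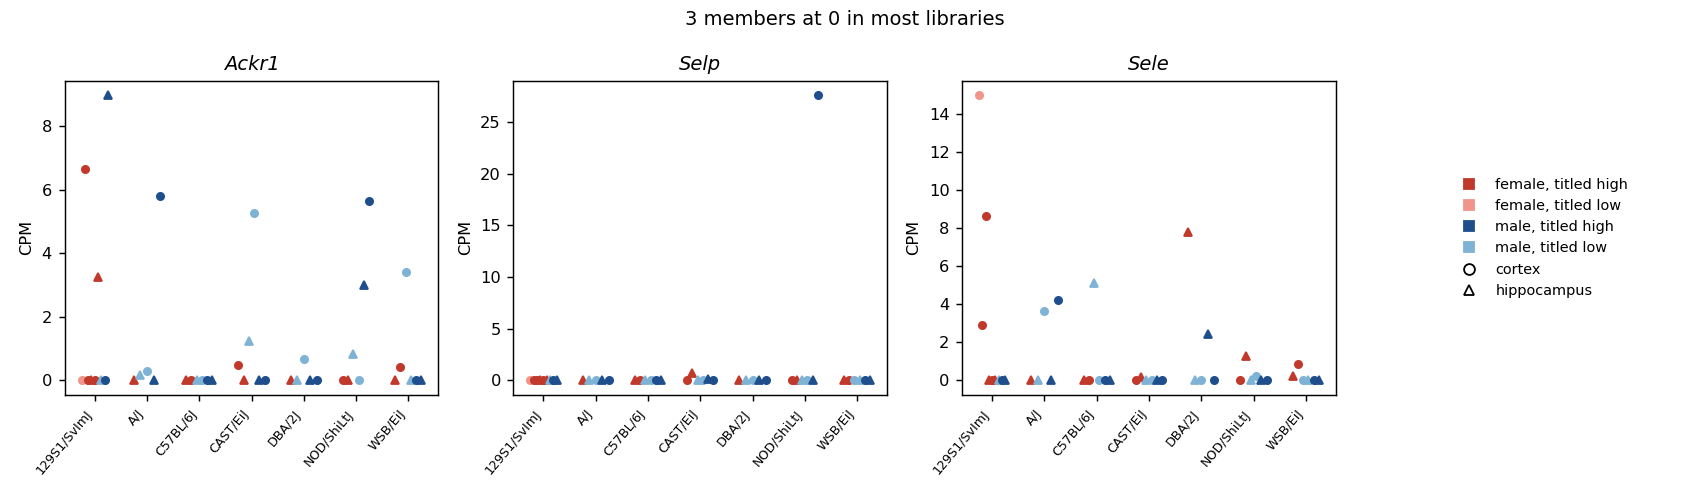
Ackr1, Selp and Sele in CPM (linear axis) for the 43 libraries by strain, with colour for sex and title tag and shape for region. Most points lie at 0, and 1 NOD/ShiLtJ library holds Selp at 27.6 CPM.

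Between the title tags in males, Icam2 was higher in libraries titled high. It ran from 56.1 to 161.0 CPM with a median of 78.7 CPM in the 14 libraries titled high, and from 10.3 to 61.3 CPM with a median of 34.3 CPM in the 13 titled low. The groups overlapped by 1 library titled high and 2 titled low. Icam2 was higher in the library titled high in 13 of 13 pairs of the same strain and region. The log2 difference was 1.30 ± 0.231 (2.47-fold, edgeR adjusted p = 7.35e-04), and Icam2 was the 1 member that passed, beside 1.06% of all genes. Within hippocampus it was 0.974 (adjusted p = 0.378), and the difference between regions did not pass (0.769 ± 0.452, edgeR adjusted p = 1.0).

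Ackr3 and Vcam1 were higher in the library titled high in 11 and 12 of the 13 pairs and did not pass (log2 differences 0.781 ± 0.265, edgeR adjusted p = 0.195, and 1.23 ± 0.404, edgeR adjusted p = 0.166). With strain and region as terms, Ackr3 passed at 0.932 (adjusted p = 0.0296). Cxcl12 was higher in 6 of the 13 pairs and lower in 7, with a log2 difference of 0.0745 ± 0.133 (edgeR adjusted p = 0.845).

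Marker sums moved with the tag as well, and their part in the Icam2 difference was not tested. The endothelial sum had a median of 17500 CPM in libraries titled high (13400 to 20400) and 14500 CPM in those titled low (13200 to 16500). Of its 16 markers 4 were called higher and 1 lower in libraries titled high. The neuronal sum ran from 362 to 1080 CPM against 669 to 1590 CPM (4 of 10 markers lower), and the astrocyte sum from 1480 to 7270 CPM against 3160 to 19700 CPM (3 of 10 lower).

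Icam2 was also the 1 member called between the sexes, beside 2.85% of all genes (745 higher and 85 lower in females, or 430 and 155 with DESeq2's size factors). It ran from 38.9 to 198.1 CPM (median 108.4) in 16 female libraries and from 10.3 to 161.0 CPM (median 61.3) in 27 male libraries, with a log2 difference of 0.854 ± 0.219 (edgeR adjusted p = 0.0119). All but 1 of the female libraries were titled high. Among libraries titled high it was 114.9 ± 41.5 CPM in females (SD, n = 15) and 85.7 ± 26.1 CPM in males (n = 14), and the log2 difference of 0.399 did not pass (edgeR adjusted p = 0.388). Females were higher in 9 of 12 combinations of strain and region among those libraries. With the rRNA-like share as a covariate the difference was 1.06 (adjusted p = 0.259), and with DESeq2's size factors 0.723 (adjusted p = 0.0659), a scaling that moved all genes by a median of -0.108. Of the 16 endothelial markers 2 were called higher in females, Egfl7 and Esam, and of the 10 astrocyte markers 2 were called lower. The endothelial sum ran from 10600 to 21100 CPM in females (median 17200) and from 13200 to 20400 CPM in males (median 15900), and the part of these in the Icam2 difference was not tested. Cx3cl1 stood lower in females, at 53.6 ± 25.8 CPM (SD, n = 16) against 75.0 ± 40.3 CPM (n = 27), and did not pass (-0.485 ± 0.231, edgeR adjusted p = 0.344).

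**Figure D4:**
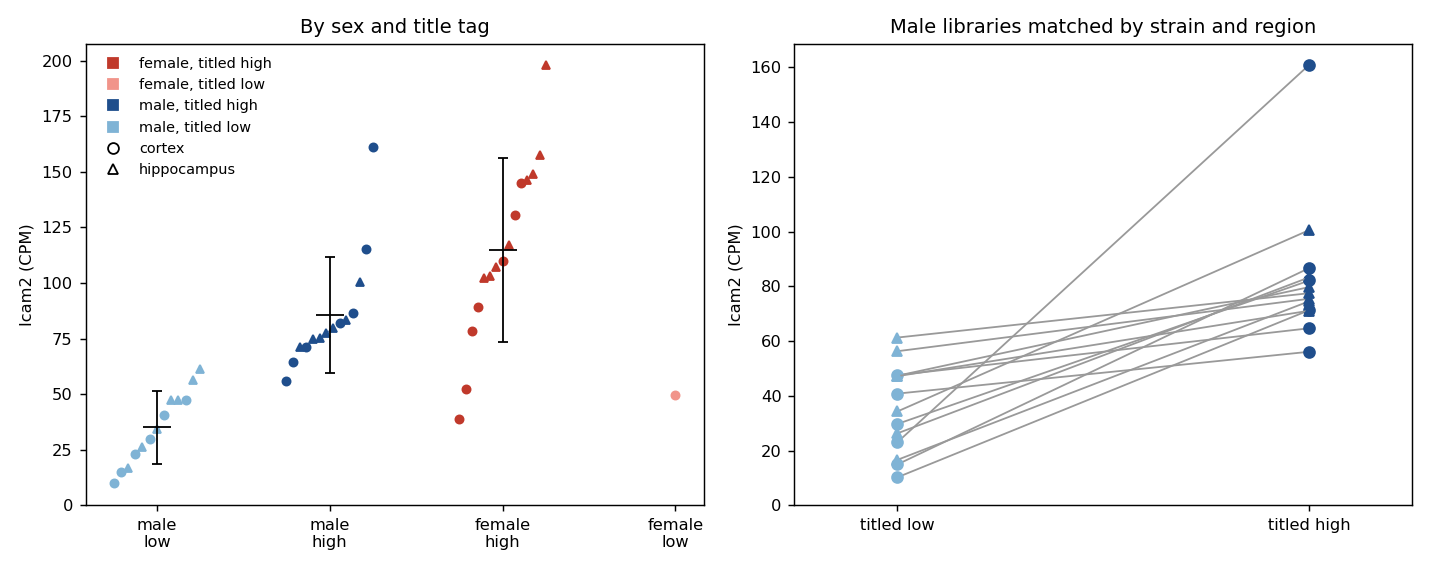
Left, Icam2 in CPM for each library by sex and title tag with mean ± SD where a group has more than 1 library. Right, the 13 pairs of male libraries of the same strain and region, each joined by a line that rises from the library titled low to the one titled high.

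Between cortex and hippocampus no member passed in edgeR's quasi-likelihood test, none had an unadjusted p under 0.05 and none passed in DESeq2. Over all genes edgeR called 0.0755%, with 1631 of 29120 at an unadjusted p under 0.05, and DESeq2 called 61. Cxcl12 was 3087 ± 1317 CPM in cortex (SD, n = 21) and 2617 ± 1067 CPM in hippocampus (n = 22), with a log2 difference of 0.238 ± 0.144 (edgeR adjusted p = 0.669). Within the same strain, sex and tag it was higher in cortex in 16 of 18 combinations, and with that combination as a term it did not pass (adjusted p = 0.155). Vcam1 was higher in cortex in 13 of 18 combinations, with a log2 difference of 0.723 ± 0.409 (edgeR adjusted p = 0.669).

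No member passed a test of whether the difference by origin, tag or sex itself differed between regions, in edgeR or in DESeq2. Over all genes edgeR called 0% for origin (675 genes at an unadjusted p under 0.05, DESeq2 24 genes called), 0% for the tag in males (563 and 42 genes) and 0.00343% for sex (1077 and 25 genes). At an unadjusted p under 0.05 there was 1 member for origin (Selp), 1 for the tag (Cx3cl1) and 1 for sex (Selp). Cx3cl1 stood at 106.6 ± 51.2 CPM in male hippocampus libraries titled high against 46.2 ± 24.8 CPM in those titled low (SD, n = 7 each). In male cortex libraries it was 70.9 ± 27.6 CPM (n = 7) against 76.6 ± 32.3 CPM (n = 6), and the interaction was -1.30 ± 0.467 on the log2 scale (edgeR adjusted p = 1.0).

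**Figure D5:**
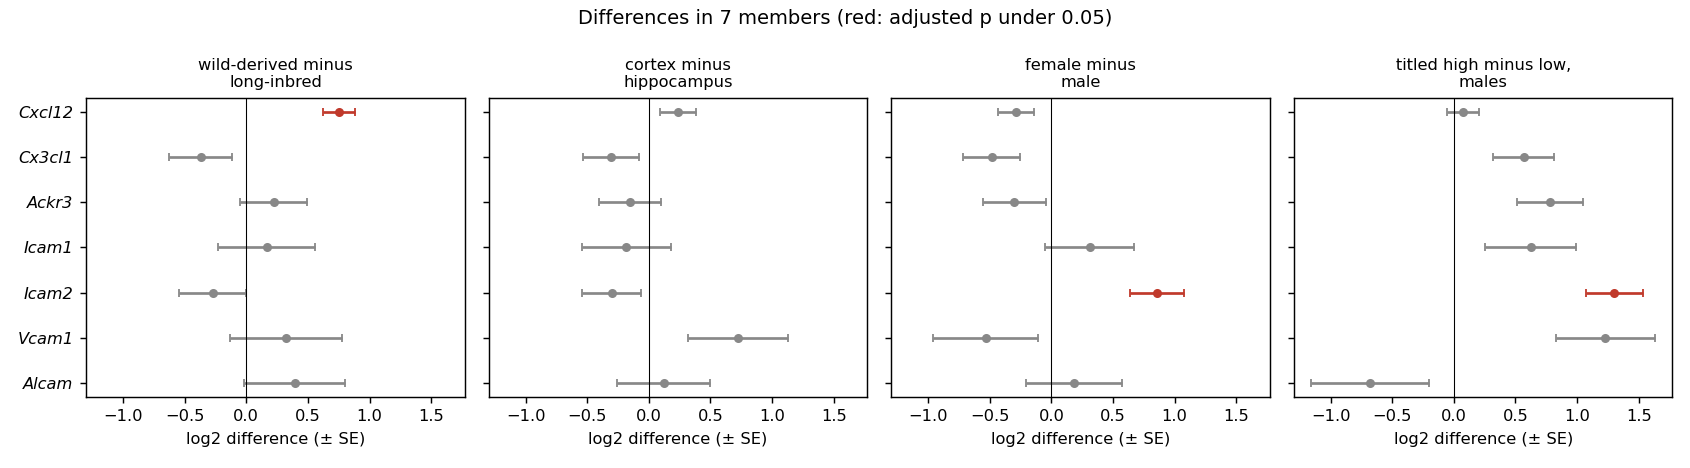
The log2 difference with its SE for the 7 members with counts in most libraries, in the comparisons by origin, region, sex and, in males, title tag, with an adjusted p under 0.05 in red. Cxcl12 by origin (0.756), Icam2 by sex (0.854) and Icam2 by tag (1.30) are in red.

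Other genes of leukocyte recruitment were followed as 5 lists. Over all genes edgeR called 2.68% among strains, 0.749% by origin, 2.85% between sexes and 1.06% by tag in males. Of 30 further chemokine genes 22 were tested. Ppbp, a platelet chemokine that is also on the platelet marker list, was called among strains (edgeR adjusted p = 4.16e-04). It had counts in 5 of 5 A/J and 3 of 6 C57BL/6J libraries. In WSB/EiJ it had counts in 0 of 6 libraries, under floors of 0.603 to 1.84 CPM. Of 22 chemokine receptor genes 19 were tested, and edgeR and DESeq2 both called 0 in every comparison. At an unadjusted p under 0.05 there were 2 among strains and 2 by origin, beside 3107 and 2041 of 29120 genes. Of 29 tested adhesion and diapedesis genes of 30, Glg1, Cd34 and Podxl were called among strains. Glg1, a Golgi glycoprotein that binds E-selectin, was highest in WSB/EiJ at 372.0 ± 189.0 CPM (SD, n = 6), with CAST/EiJ next at 224.0 ± 35.5 CPM (n = 6). It was called higher in wild-derived strains (0.678 ± 0.149, edgeR adjusted p = 0.00614), though libraries of a strain are not independent replicates of origin. The sialomucin gene Cd34 ran from 191.0 ± 49.7 CPM in WSB/EiJ to 454.0 ± 126.0 CPM in CAST/EiJ (n = 6 each, edgeR adjusted p = 0.00104), and Podxl from 897.0 ± 318.0 CPM in 129S1/SvImJ (n = 9) to 1480.0 ± 382.0 CPM in NOD/ShiLtJ (n = 6, edgeR adjusted p = 0.0254).

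Esam, an endothelial junction adhesion molecule that is also on the endothelial marker list, was called in the same comparisons as Icam2. It was higher in libraries titled high among males, at a mean of 335.0 against 219.0 CPM (0.624 ± 0.140, edgeR adjusted p = 0.00842), and in females, at 425.0 against 279.0 CPM (0.606 ± 0.140, edgeR adjusted p = 0.00390). Of 12 counter-receptor genes of leukocytes Itga4, a subunit of VLA-4, was called among strains, at 102.0 ± 44.9 CPM in WSB/EiJ (n = 6) and 18.8 ± 7.79 CPM in DBA/2J (n = 5, edgeR adjusted p = 0.00202). Of 25 NF-kB and cytokine response genes Il6st was called among strains (edgeR adjusted p = 0.0293), where 2.68% of all genes were called. Nfkbia, the NF-kB inhibitor gene, was called higher in males titled high, at 204.0 against 118.0 CPM (0.801 ± 0.189, edgeR adjusted p = 0.0139). The lists' medians for the tag in males were 0.445 for adhesion and diapedesis genes and 0.365 for NF-kB and cytokine response genes, beside 0.0448 over all genes. They were -1.03 for chemokines, -0.311 for chemokine receptors and -2.68 for leukocyte counter-receptors. In edgeR 2 of 22 chemokines, 0 of 18 receptors and 0 of 10 counter-receptors had an unadjusted p under 0.05, beside 2233 of 27529 genes. No chemokine, receptor or counter-receptor gene was called. Of the adhesion and diapedesis genes 10 of 28 had an unadjusted p under 0.05, and of the NF-kB and cytokine response genes 6 of 25. Of each of these lists edgeR called 1 gene, beside 1.06% of all genes. No list held a called gene between regions in edgeR, where 3 genes of these lists had an unadjusted p under 0.05 and DESeq2 called 1. Over all genes these were 1631 of 29120 and 61.

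For each member the genes with the most similar pattern were taken by Pearson's r of log2(CPM + 1) over the 43 libraries, as a description, since libraries share strain, sex and depth. The members themselves were left out of the genes searched. Nearest to Cxcl12 were Serinc3 (r = 0.784), Abhd2 (0.774) and Psap (0.730). Nearest to Ackr3 were Arhgef3 (0.758), Cav1 (0.731) and Cobll1 (0.717). Nearest to Icam2 were Ramp2 (0.731), Prpf38a (0.685) and Itm2a (0.675), and nearest to Cx3cl1 were Hspg2 (0.708), Fam110a (0.670) and CAAA01118383.1 (0.668). Icam1 lay nearest Ubl7 (0.716), Vezf1 (0.698) and Mettl4 (0.681), Vcam1 nearest Mdfic (0.701), Tlr3 (0.658) and Chrnb1 (0.649), and Alcam nearest Psd (0.666), Pgk1 (0.626) and Amph (0.624). For Ackr1, Selp and Sele the highest r was 0.510, 0.518 and 0.514, to Peli2, Gm24187 and Apoe.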

How the data were processed

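RNA was sequenced from sorted EC in 43 libraries (rRNA depletion, stranded total RNA kit). Per the submitters' processing notes, HISAT2 2.1.0, SAMtools 1.9, Subread 1.4.4 and the build mm10 were used, with featureCounts as the counter, and the authors deposited raw counts per gene, not normalized. Groups were taken from the labels. The members and gene lists were chosen with earlier results of these data known, and so was the dispersion setting. Counts were scaled by TMM. Genes reaching 0.5 CPM in any 1 library entered edgeR 4.0.16 (R 4.3.3), using the quasi-likelihood test with bias-adjusted deviances and trended dispersion, two-sided, Benjamini-Hochberg at 0.05, each factor alone. In fits with covariates, genes with a fitted count over 5 times the largest observed could not be fitted. The fit was tested on simulated data. Exon lengths came from GENCODE M21. Ccl19 was taken by its identifier on chromosome 4. Alternatives included DESeq2 1.42.0. All 10 members were named, with list genes passing a test and the 3 most similar genes outside the members with a mean of at least 5 CPM.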

Additional observations from a re-analysis of the deposited data

Results flagged for a closer look

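In 64 groups of member and strain, 14 had a library whose gap to the nearest other exceeded Dixon's 95% critical value on the log2(CPM + 1) scale. That value flags about 1 in 20 groups of normally distributed values. A group at 0 but for 1 library is always flagged, so the 14 cannot be set against that rate. Of the 14 flagged groups, 9 were of Ackr1, Selp and Sele, which were at 0 in most libraries. Ackr1 stood out at 5.79 CPM in the male A/J cortex library titled high, at 0.677 CPM in the male DBA/2J cortex library titled low and at 3.42 CPM in the male WSB/EiJ cortex library titled low. Selp stood out at 27.6 CPM in the male NOD/ShiLtJ cortex library titled high and at 0.713 CPM in the female CAST/EiJ hippocampus library. Sele did so at 5.14 CPM in the male C57BL/6J hippocampus library titled low, and in female libraries at 0.190 CPM (CAST/EiJ hippocampus), 1.27 CPM (NOD/ShiLtJ hippocampus) and 0.865 CPM (WSB/EiJ cortex). Some of these are few counts: Sele had 4 in the CAST/EiJ and at most 2 in the WSB/EiJ library, and Ackr1 had 4 in the DBA/2J library. The values of 4 counts lay just above the floor of 3 counts of their own library, and the Sele value in the WSB/EiJ library lay below it. Low libraries stood out for Ackr3 at 36.7 CPM (male A/J hippocampus titled low), Icam1 at 1.29 CPM (male C57BL/6J hippocampus titled low) and Icam2 at 10.3 CPM (male WSB/EiJ cortex titled low). They did so for Alcam at 2.51 CPM (female DBA/2J hippocampus) and at 0 in the male WSB/EiJ hippocampus library titled high, where the floor of 3 counts stood at 1.84 CPM.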

How the results depend on the processing

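Cxcl12 differed among strains under 12 of 12 alternatives and with each of 43 libraries left out (adjusted p at most 0.00178). The members called among strains were 2 with no filter on low counts and 2 with other factors as terms, the second being Vcam1, and 1 to 2 with a library left out. By origin 0 members were called in cortex only (Cxcl12 0.769, adjusted p = 0.113), without CAST/EiJ and with counts summed per strain, and Cxcl12 stayed called with each library left out (0.683 to 0.819). Between sexes 0 members were called with DESeq2's size factors, other factors as terms (Icam2 0.393, adjusted p = 0.618), the rRNA-like covariate, libraries titled high only or cortex only (0.482, adjusted p = 0.583). Icam2 stayed called with each library left out (0.762 to 0.947). For the tag, 2 members were called with other factors as terms and 0 in hippocampus only. Pairwise contrasts, whose alternatives were chosen after seeing the data, numbered 7 in the main setting, 4 in males only, 4 in hippocampus only and 5 to 9 with a library left out. In cortex only, 2 of the 6 Cxcl12 contrasts called involved CAST/EiJ. Directions that turned, none of them called, were by origin Ackr3 (-0.0185) and Vcam1 (-0.108) in males only, and Icam1 (-0.409), Vcam1 (-1.55) and Alcam (-0.112) without CAST/EiJ. By region they were Icam1 (0.00923) without libraries under 3000000 counts, Ackr3 (0.0339), Icam2 (0.0332) and Alcam (-0.143) in males only, and Alcam (-0.169) with the strain, sex and tag combination as a term. By sex they were Icam1 (-0.0970) with other factors as terms, Cxcl12 (0.481), Ackr3 (0.689) and Alcam (-0.229) with the rRNA-like covariate, and Icam1 (-0.0249) and Alcam (-0.153) in hippocampus only. By tag it was Cx3cl1 (-0.115) in cortex only. With a library left out, Icam1 by origin ran from -0.00490 to 0.285, Alcam by region from -0.0266 to 0.235, Alcam by sex from -0.0395 to 0.277 and Cxcl12 by tag from -0.0352 to 0.125. The cause was not tested. Medians in place of means moved 0 of 49 strain levels by more than their SD. No median can lie further than that from the mean of the same values, so this check could not fail. Covariate fits tested fewer genes. Gene counts called over the alternatives ran from 6 to 395 by origin and from 65 to 1031 by sex. No paired analysis was possible because the labels do not state which libraries share a mouse, and libraries were matched on strain, sex, region and tag only.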
